A study of Mus musculus with 18 samples.

Results

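Genes of the liver's endothelial cells, the cells that line its blood vessels, were followed in whole-liver RNA sequencing of mice with or without a liver-specific knockout of Ftcd, an enzyme that joins histidine breakdown to the folate pool. The set was defined by name as 35 genes known from pan-endothelial, sinusoidal, venous, arterial and tumour endothelium, and all 35 were found among the 58126 genes of the table. The rule that selects them uses no measured value, although the set was drawn up with earlier results of these data known. The 18 libraries fell into 5 groups of C57BL/6 mice. Untreated liver at 12 months of age came from wild type (WT, 3 libraries) and liver-specific Ftcd knockout (LKO, 3 libraries). The other groups had been given diethylnitrosamine (DEN), a carcinogen that hepatocytes activate, at 20 mg/kg by 1 intraperitoneal injection when the pups were 14 days old, with liver collected 12 months later. These were nontumour liver of WT (6 libraries), nontumour liver of LKO (3 libraries) and tumour of LKO (3 libraries), while WT tumour was not analysed here. WT and LKO were littermates. The promoter that drove the Cre is not given in the sources used here, so it is not stated whether endothelial cells carried the deletion. No label states that the replicates of a group were separate animals, so the p-values describe spread among these libraries, part of which could be technical. Values are in TPM, a length-corrected share of each library's transcripts that keeps no sequencing depth. The depth behind each value is therefore unknown.

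Liver sinusoids are lined by a specialised endothelium with open pores and no continuous basement membrane, which clears waste molecules and immune complexes from blood through scavenger and Fc receptors (Stab1, Stab2, Lyve1, Clec4g, Fcgr2b). The same cells send Wnt ligands, R-spondin and BMP ligands to hepatocytes, which set the zonation of metabolism along the lobule and the output of hepcidin. In chronic injury and in liver tumours, sinusoidal endothelium is known to lose scavenger receptors and pores and to take on features of continuous capillaries such as Cd34, a change called capillarisation. In bulk tissue, fewer endothelial cells and less RNA of a gene per endothelial cell cannot be told apart.

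Several libraries stood apart or went against their labels. Ftcd lay at 0.1 to 3.16 TPM in the 9 libraries labelled LKO and at 61.2 to 106.1 TPM in 6 of the 9 labelled WT, but at 1.77 TPM in untreated WT 3, 2.36 TPM in DEN WT nontumour 1 and 2.5 TPM in DEN WT nontumour 2. The main results on those groups are therefore also given without these 3 libraries. By Xist and Y-linked transcripts, all 9 libraries labelled WT were XX and all untreated LKO libraries XY, as were replicates 2 and 3 of both DEN LKO groups, whose replicate 1 was XX. Sex and genotype therefore cannot be told apart in untreated liver and only in part after DEN. Mitochondrially encoded genes took 4.24% to 38.8% of a library's TPM, most in DEN WT nontumour 1. Without the 3 libraries labelled WT with low Ftcd, the share was 4.24% to 10.0% in the WT libraries left. It was 10.5% to 36.9% in the LKO libraries. Genotype and mitochondrial share therefore cannot be told apart in the fits without those 3 libraries. The 10 hepatocyte markers summed to between 18045 and 98354 TPM in a library, and the endothelial members together to between 112 TPM (untreated LKO 2) and 418 TPM (DEN WT nontumour 6).

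Levels of the members, which TPM lets be compared between genes per transcript length, spanned from Stab1 to Wnt9b. Stab1, a scavenger receptor also made by macrophages, had the highest mean over the 18 libraries (31.1 TPM). It was followed by Clec4g (19.7 TPM), a sinusoidal C-type lectin, and by Plvap (17.7 TPM), which forms the diaphragms of endothelial pores. Egfl7 (17.5 TPM), a protein that endothelial cells secrete into the vessel wall, Fcgr2b (16.4 TPM), the inhibitory Fc receptor that clears immune complexes, and Eng (15.003 TPM), a BMP co-receptor, came next. Aqp1 (11.1 TPM), a water channel, and Emcn (10.1 TPM), a sialomucin of capillaries and veins, completed the 8 members above 10 TPM. Neighbours in this order did not separate, since the range of each overlapped that of the next across libraries. For example, Clec4g ran from 2.51 to 57.9 TPM and Plvap from 1.94 to 65.7 TPM. At the low end, Tek, the angiopoietin receptor, averaged 0.791 TPM, and the Wnt ligands Wnt2 and Wnt9b averaged 0.397 and 0.158 TPM. There were 15 members at 1 TPM or more in every library. Each library thus held transcripts of sinusoidal endothelium. Clec4g was at 2.51 TPM or more, and Ehd3, a membrane-trafficking protein of these cells, at 2.44 TPM or more.

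**Figure D1:**
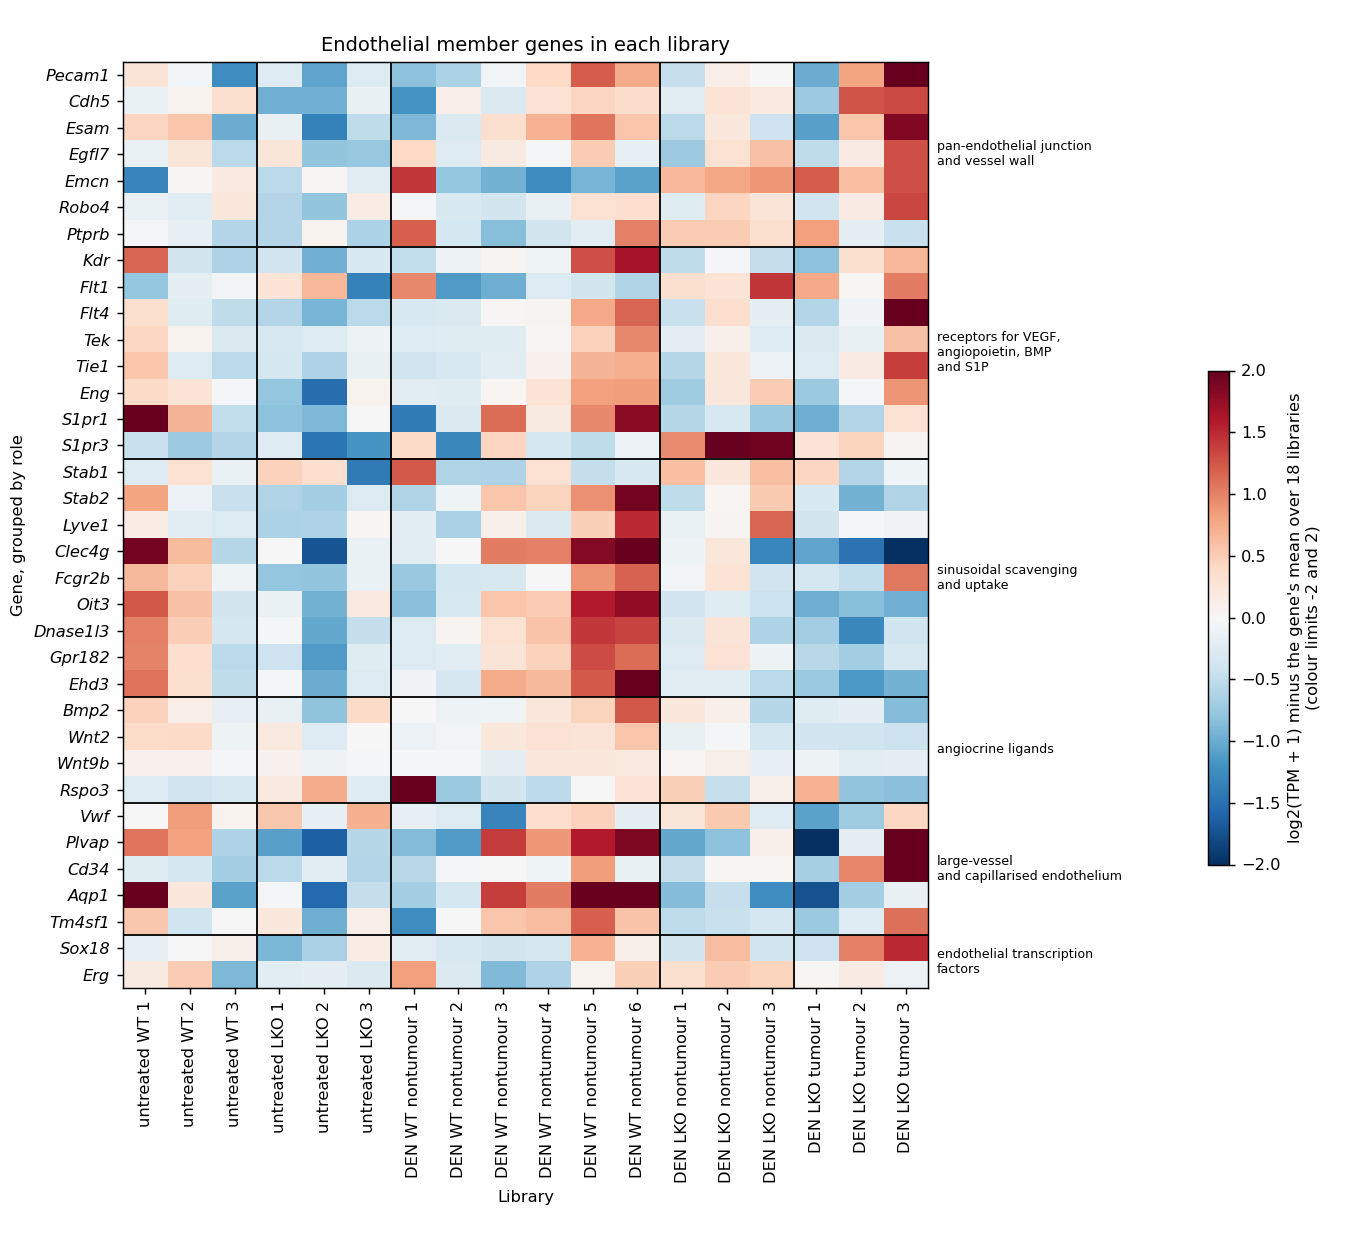
Each cell shows a member's log2(TPM + 1) in 1 library minus that gene's mean over the 18 libraries (red higher, blue lower, colours limited at -2 and 2), with genes grouped by role and libraries by group. DEN WT nontumour 6 and DEN LKO tumour 3 hold the highest value of 10 and 11 of the 33 tested members (30.3% and 33.3%). They also hold the highest value of 28.0% and 26.3% of all tested genes. The members are mostly scavenging genes in the first library and mostly junction, receptor and large-vessel genes in the second.

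Differences between groups were tested with limma on log2(TPM + 1) over all 13872 genes that reached 1 TPM in at least 3 libraries, and a gene was called at an adjusted p under 0.05. Among the members 33 passed this filter, and Wnt2 and Wnt9b did not. A single member was called in the 6 comparisons. S1pr3 was higher in DEN LKO nontumour liver than in untreated LKO liver, where 0.0649% of all genes were called, 0.036% higher. It was also the only member there at an unadjusted p under 0.05, against 5.96% of all genes. No member was called between untreated LKO and WT, where 0.433% of all genes were, and 0 members reached an unadjusted p under 0.05 against 4.15% of all genes. Between DEN LKO and DEN WT nontumour liver 0 members were called (0.0577% of all genes), and 6 reached an unadjusted p under 0.05 (13.1% of all genes). DEN against untreated WT called 0 members and 0% of all genes, with 0 members and 0.685% of genes at an unadjusted p under 0.05. LKO tumour against LKO nontumour liver also called 0 members and 0% of all genes, with 1 member and 2.74% of genes at an unadjusted p under 0.05. LKO tumour against DEN WT nontumour liver called 0 members (0.497% of all genes), while 8 members reached an unadjusted p under 0.05 (10.5% of all genes). Comparisons share groups, DEN WT nontumour liver standing in 3 of the 6, so their values are given side by side and not set against each other.

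The median log2 fold change of the 33 members was set beside that of all tested genes in each comparison. The members lay furthest from all genes for DEN against untreated in LKO, at 0.30 above. Between untreated LKO and WT the members' median was -0.38, beside -0.33 for all genes. Between DEN LKO and DEN WT nontumour liver it was -0.25 beside -0.20. DEN against untreated gave 0.19 beside 0.02 in WT and 0.42 beside 0.12 in LKO. LKO tumour gave 0.03 beside 0.23 against LKO nontumour liver and -0.07 beside 0.04 against DEN WT. The share of all tested genes with a fold change above 0 was, in the same order of comparisons, 23.4%, 38%, 52.4%, 61.6%, 69% and 52.8%, and 4, 11, 24, 28, 18 and 13 of the 33 members were above 0. The median hid a spread between role groups in LKO tumour against DEN WT, where scavenging genes had the lowest fold changes and junction genes some of the highest, as the plot of fold changes shows. Scaling the libraries by median ratios moved the all-gene median to 0.01 in both untreated LKO against WT and LKO tumour against nontumour liver, so directions there are also given relative to it.

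**Figure D2:**
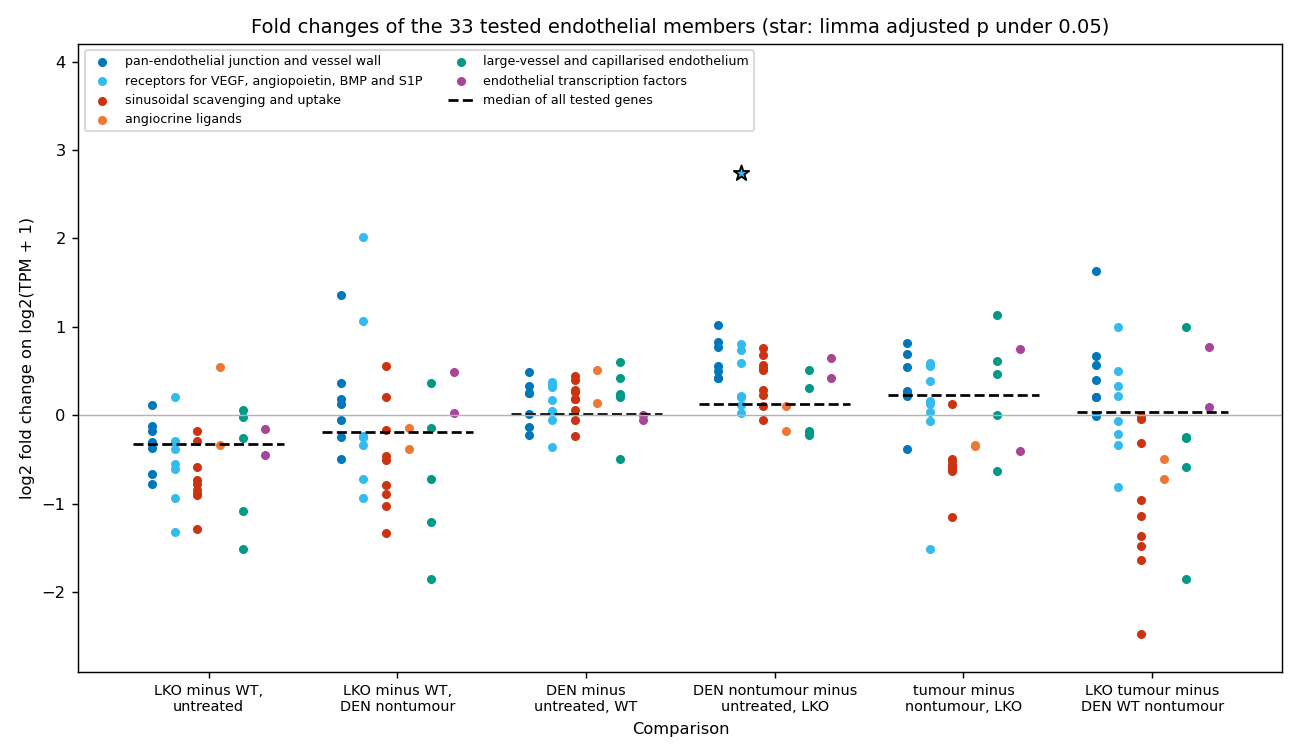
Points are the log2 fold changes of the 33 tested members in each of the 6 comparisons, coloured by role, dashes mark the median of all tested genes, and the star is S1pr3, the only member called (limma adjusted p under 0.05). In LKO tumour minus DEN WT nontumour liver the 9 scavenging genes run from -2.48 to -0.01, while the 7 junction and vessel-wall genes run from -0.01 to 1.63.

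Junction and vessel-wall genes hold endothelial cells together or coat their surface. Cdh5, the cadherin of endothelial junctions, measured 6.59, 7.71 and 9.35 TPM in untreated WT and 3.25, 3.27 and 6.49 TPM in untreated LKO. These groups did not overlap, with LKO lower, and limma did not call the difference. After DEN, Cdh5 ran from 2.63 to 10.2 TPM in WT with a median of 8.61, and measured 6.07, 9.01 and 8.52 TPM in LKO nontumour liver. In the LKO tumours it measured 4.02, 18.9 and 19.8 TPM, so tumours 2 and 3 lay above all other libraries and tumour 1 among the lower ones. Pecam1, an adhesion molecule of endothelium and platelets, followed a like order in the tumours at 2.01, 9.38 and 29.4 TPM, against 1.54 to 12.9 TPM in all other libraries. Platelet and megakaryocyte markers summed to 7.08, 6.49 and 45.6 TPM in the same tumours, the last the highest of all libraries, and their part in Pecam1 was not tested. Esam, another junction protein, measured 1.52, 6.86 and 18.2 TPM there, and Robo4, a receptor that steadies vessels, 0.95, 1.86 and 5.49 TPM. Tumour 3 thus held the highest value of Pecam1, Cdh5, Esam, Egfl7 and Robo4, and tumour 1 the lowest tumour value of each. Tumour 3 also held the highest value of 26.3% of all tested genes.

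Emcn was the junction-group member with the largest difference. It measured 2.70, 8.40 and 9.60 TPM in untreated WT and 5.37, 8.35 and 6.86 TPM in untreated LKO. In DEN WT nontumour liver, 5 libraries lay between 2.86 and 4.43 TPM and library 1 at 23.7 TPM. DEN LKO nontumour libraries measured 13.7, 14.8 and 15.9 TPM and the LKO tumours 20.3, 13.1 and 21.7 TPM. All 6 DEN LKO libraries thus lay above every other library except DEN WT nontumour 1, the highest of all. The difference from DEN WT was 1.36 ± 0.50 (SE, adjusted p = 0.335) for LKO nontumour liver and 1.63 ± 0.50 (adjusted p = 0.167) for LKO tumour, neither called. Without the 3 libraries labelled WT with low Ftcd, both were called, at 1.82 (adjusted p = 0.0191) and 2.09 (adjusted p = 0.0079). In those fits 9.43% and 3.16% of all genes were called. Leaving out DEN WT nontumour 1 alone gave 1.76 (adjusted p = 0.0283) and 2.03 (adjusted p = 0.0072), where 1.39% and 1.34% of all genes were called. Each of these fits leaves out library 1, the only DEN WT library as high in Emcn as the DEN LKO libraries. That favours a call, so no conclusion is drawn from these calls. Within DEN WT, the library highest in Emcn also had the highest mitochondrial share, which was 4.39% to 9.82% in the 5 lower libraries and 38.8% in library 1. Elsewhere Emcn followed the share only in part. It rose in the same order as the share in untreated WT and in the opposite order in DEN LKO nontumour liver. LKO tumour 3 had 21.7 TPM of Emcn at a share of 10.5%, and untreated LKO 2 had 8.35 TPM at 30.9%. With that share as a term of the fit, the differences were 0.50 (adjusted p = 0.796) and 1.02 (adjusted p = 0.154), and its part in them was not tested further. Ptprb, a phosphatase that restrains angiopoietin signalling, was likewise highest in DEN WT nontumour 1 (7.23 TPM), and in DEN LKO nontumour liver (4.06, 4.07 and 3.45 TPM) it lay above all untreated LKO libraries (1.39, 2.74 and 1.30 TPM).

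**Figure D3:**
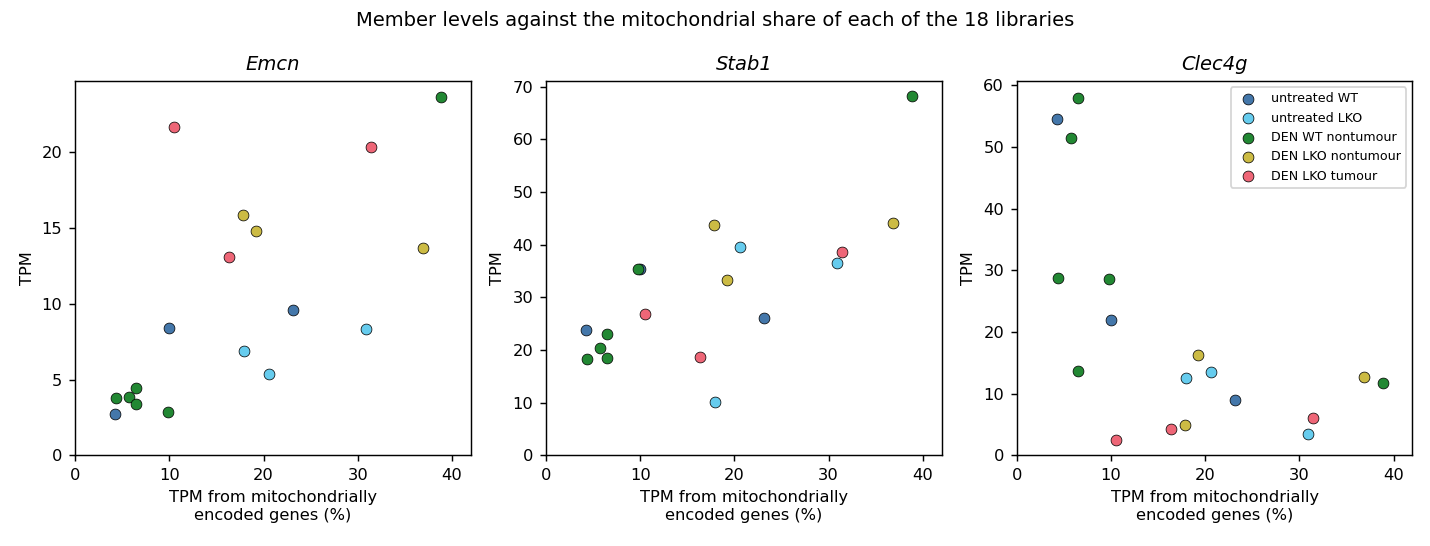
Each point is 1 of the 18 libraries, coloured by group, with the percent of TPM from mitochondrially encoded genes on the x axis and the TPM of Emcn, Stab1 or Clec4g on the y axis. DEN WT nontumour 1, at 38.8%, has 23.7 TPM of Emcn and 68.2 TPM of Stab1, the highest of both, while Clec4g exceeds 20 TPM only in libraries with a share of at most 10.0%.

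Among the receptors, S1pr3 gave the only call. S1pr3 is a receptor for sphingosine 1-phosphate, a blood lipid, and is made by endothelium and also by stellate and smooth muscle cells. It measured 1.02, 0.67 and 0.84 TPM in untreated WT, and 1.31 and 0.22 TPM in untreated LKO 1 and 3, while untreated LKO 2 was listed at 0. DEN WT nontumour liver ran from 0.13 to 2.73 TPM with a median of 1.35. DEN LKO nontumour libraries measured 4.33, 13.9 and 9.55 TPM and LKO tumours 2.32, 2.76 and 1.87 TPM. The 3 DEN LKO nontumour libraries were thus the 3 highest of the 18 and overlapped with no other group. Against untreated LKO the log2 fold change was 2.74 ± 0.46 (SE, 3 against 3 libraries, limma adjusted p = 0.0324). It lay above the replicate spread, but the call was lost when either untreated LKO 2 (2.49, adjusted p = 0.233) or untreated LKO 3 (2.63, adjusted p = 0.153) was left out. Leaving out DEN LKO nontumour 2 (2.41, adjusted p = 0.0782) or 3 (2.66, adjusted p = 0.172) also ended it. Adding the mitochondrial share to the fit left it called (2.74, adjusted p = 0.0271). Against DEN WT nontumour liver the difference was 2.02 ± 0.40 (adjusted p = 0.0985), without overlap between the groups, beside 2.33% of all genes higher in that way. It was called without the 3 low-Ftcd libraries (1.91, adjusted p = 0.0216), without DEN WT nontumour 1 (2.14, adjusted p = 0.0246) and without DEN LKO nontumour 1 (2.43, adjusted p = 0.0173, with 0.189% of all genes called). DEN LKO nontumour 1 was the lowest of its group, and DEN WT nontumour 1 (2.60 TPM) was among the highest of its group. Leaving out either alone favours a call, so no conclusion is drawn from those calls.

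LKO tumours had less S1pr3 than LKO nontumour liver without overlap, at -1.52 ± 0.46 (adjusted p = 0.943). The genotype difference after DEN exceeded that without DEN by 2.40 ± 0.61 (SE), which did not pass adjustment (adjusted p = 0.818) in a test added after the data were seen. Markers of the other cells that make S1pr3 were present too. The 12 stellate cell and fibroblast markers, none of which was at 0 in all libraries, summed to 19.5 to 49.0 TPM in untreated LKO and 33.1 to 56.7 TPM in DEN LKO nontumour liver, and 12 of 12 had a fold change above 0 with a median of 0.38, beside 61.6% and 0.12 for all genes. The 11 macrophage markers summed to 57.9 to 115 TPM and 178 to 515 TPM in the same groups, and 10 of them were higher at an unadjusted p under 0.05, beside 5.96% of all genes in either direction, and none was called by limma. The part of either cell type in the S1pr3 difference was not tested.

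**Figure D4:**
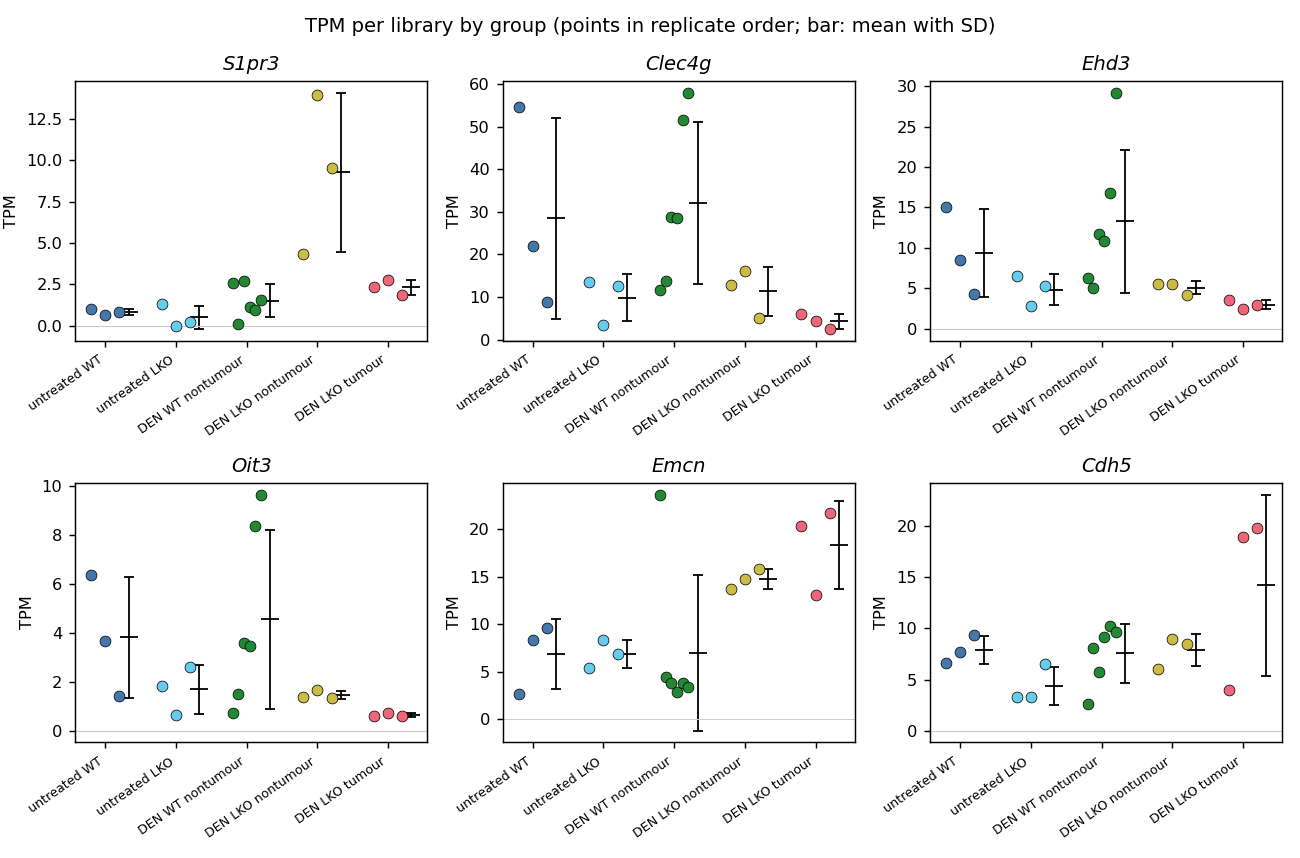
TPM per library in the 5 groups for 6 members, with points in replicate order and a bar for the mean with its SD. S1pr3 is highest in the 3 DEN LKO nontumour libraries (4.33 to 13.9 TPM), Clec4g, Ehd3 and Oit3 are below every DEN WT library in the 3 LKO tumours, and Cdh5 reaches 18.9 and 19.8 TPM in tumours 2 and 3.

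S1pr1, the receptor that keeps endothelial junctions closed, had another pattern. It measured 17.3, 6.15 and 2.17 TPM in untreated WT and 1.52, 1.39 and 3.45 TPM in untreated LKO. In DEN WT nontumour liver it ran from 0.68 to 14.5 TPM, and DEN LKO nontumour libraries had 1.98, 2.55 and 1.65 TPM. It was among the 7 members called lower or higher between DEN LKO and DEN WT nontumour liver once the 3 low-Ftcd libraries were left out, when 9.43% of all genes were called. Those 7 were Emcn and S1pr3, higher in LKO, and Aqp1, Clec4g, Ehd3, Oit3 and S1pr1, lower in LKO. The DEN WT libraries left out had the lowest DEN WT values of each gene called lower, which favours those calls.

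The VEGF receptors did not move as a group. Kdr, the main signalling receptor for VEGF-A, was between 0.25 and 0.96 TPM in untreated LKO and between 0.7 and 1.39 TPM in DEN LKO nontumour liver, while in DEN WT nontumour liver it reached 4.94 and 6.58 TPM in libraries 5 and 6 and was 0.72 to 1.51 TPM in the other 4. Flt1, the VEGF receptor that acts mainly as a decoy, measured 4.68, 4.48 and 11.2 TPM in DEN LKO nontumour liver against 1.08 to 7.88 TPM in DEN WT (1.06 ± 0.49, SE, adjusted p = 0.374). Like Emcn, Flt1 was highest of the DEN WT libraries in library 1, and adding that share to the fit gave 0.45. Without the low-Ftcd libraries it was 1.22 (adjusted p = 0.0917). Flt4, the VEGF-C receptor, was lower without overlap in untreated LKO (0.76, 0.39 and 0.82 TPM) than in untreated WT (2.31, 1.25 and 0.87 TPM). The step between those ranges was small, and LKO tumour 3 held the highest Flt4 of all at 9.93 TPM. Tek ran from 0.39 to 2.36 TPM over all libraries, and Tie1, its orphan partner, from 0.73 to 5.92 TPM. Eng measured 18.2, 16.9 and 13.3 TPM in untreated WT and 7.64, 4.18 and 14.5 TPM in untreated LKO, groups that overlapped. Of the 8 receptors, 7 had a fold change below 0 in untreated LKO (6 with median-ratio scaling) and 5 lay below the all-gene median.

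Scavenging and uptake genes formed the role group that was lowest in LKO tumour. All 9 had a fold change below 0 against DEN WT nontumour liver with a median of -1.14, against 0.04 for all genes (8 of 9 with median-ratio scaling, median -0.99). None was called. There were 6 at an unadjusted p under 0.05, all lower, where 4.30% of all genes were lower at that threshold, and 5 whose groups did not overlap, where 1.14% of all genes were lower without overlap. Against LKO nontumour liver, 8 of the 9 were below 0 (9 of 9 with median-ratio scaling) with a median of -0.58, and 3 (Oit3, Ehd3 and Gpr182) were lower without overlap, beside 2.02% of all genes. In untreated LKO against WT 9 of 9 were below 0 (8 with median-ratio scaling) with a median of -0.78, and 7 lay below the all-gene median. Between DEN LKO and DEN WT nontumour liver 7 of 9 were below 0 (6 with median-ratio scaling), with a median of -0.51. Without the low-Ftcd libraries the median in tumour against DEN WT was -1.57, beside -0.18 for all genes. There 8 of 9 were below 0 and 5 were called lower, beside 317 of all 13548 genes. In DEN LKO against DEN WT the median was -0.94, beside -0.43 for all genes. There 8 of 9 were below 0 and 3 were called lower, beside 871 of all 13548 genes. In untreated LKO the median was -1.14, beside -0.42 for all genes (9 of 9 below 0, none called).

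Markers of other cells were low in some of the same comparisons. Of the 10 hepatocyte markers, 9 had a fold change below 0 in LKO tumour against DEN WT, with a median of -1.005, beside 0.04 for all genes. Of them, 5 were lower at an unadjusted p under 0.05, beside 4.30% of all genes. The hepatocyte median was -1.001 in untreated LKO, beside -0.33 for all genes. In DEN LKO against DEN WT it was -0.86, beside -0.20, with 9 of 10 below 0 in each of these comparisons. Of the 11 macrophage markers, 5 were lower in tumour than in DEN WT without overlap, beside 1.14% of all genes, and 6 of 11 were below 0. No marker of either list was called by limma, and their part in the scavenging genes' differences was not tested.

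Clec4g, the sinusoidal lectin, showed the largest of these differences. It measured 54.5, 21.9 and 8.90 TPM in untreated WT and 13.6, 3.44 and 12.5 TPM in untreated LKO. In DEN WT nontumour liver it measured 11.7, 13.7, 28.8, 28.6, 51.5 and 57.9 TPM in libraries 1 to 6. DEN LKO nontumour libraries had 12.8, 16.2 and 4.97 TPM, and LKO tumours 6.05, 4.26 and 2.51 TPM, all 3 below every DEN WT library. The 3 libraries labelled WT with low Ftcd (untreated WT 3 and DEN WT nontumour 1 and 2) had 8.90 to 13.7 TPM, the lowest of their groups. The difference of LKO tumour from DEN WT was -2.48 ± 0.60 (SE, adjusted p = 0.0759). It was called at -3.004 (adjusted p = 0.00883) without the low-Ftcd libraries, at -2.37 (adjusted p = 0.028) with median-ratio scaling, where 2.36% of all genes were called, at -2.71 (adjusted p = 0.0311) without DEN WT nontumour 1 and at -2.72 (adjusted p = 0.041) without LKO tumour 1. Between DEN LKO and DEN WT nontumour liver the difference was -1.33 ± 0.60 (adjusted p = 0.373), and -1.86 (adjusted p = 0.0438) without the low-Ftcd libraries. With that mitochondrial term these were -1.97 (adjusted p = 0.089) and -0.62 (adjusted p = 0.837). The DEN WT and tumour libraries left out in the fits above were those of their group nearest in Clec4g to the other group. Leaving them out favours a call, so no conclusion is drawn from the calls made that way.

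Of the other scavenging genes, Ehd3, Oit3, Dnase1l3 and Gpr182 were also below every DEN WT library in all 3 tumours. Ehd3 measured 3.57, 2.44 and 2.97 TPM in the tumours, 5.55, 5.52 and 4.21 TPM in LKO nontumour liver and 5.05 to 29.2 TPM in DEN WT with a median of 11.3. Tumour minus DEN WT was -1.64 ± 0.46 (SE, adjusted p = 0.131) for Ehd3, and -2.09 (adjusted p = 0.0107) without the low-Ftcd libraries. LKO minus DEN WT nontumour liver was -1.03 ± 0.46 (adjusted p = 0.365), and -1.48 (adjusted p = 0.0361) without them, while the mitochondrial term gave -0.52. Oit3, a secreted protein of sinusoidal endothelium, measured 0.58, 0.73 and 0.60 TPM in the tumours against 1.39, 1.65 and 1.33 TPM in LKO nontumour liver. DEN WT nontumour liver ran from 0.74 to 9.66 TPM of Oit3, so its lowest library, number 1, stood next to the highest tumour. Its difference was -1.48 ± 0.50 (adjusted p = 0.226), -2.04 (adjusted p = 0.0117) without the low-Ftcd libraries and -0.92 with the mitochondrial term. Dnase1l3, a nuclease that degrades DNA in blood, had 2.66, 1.44 and 3.53 TPM in the tumours, below all 6 DEN WT libraries (3.93 to 14.9 TPM), at -1.37 ± 0.43 (adjusted p = 0.176). Gpr182, a scavenging chemokine receptor, had 1.64, 1.40 and 2.12 TPM there, below the 2.20 to 8.59 TPM of DEN WT (-0.96 ± 0.40, adjusted p = 0.368), and -1.30 (adjusted p = 0.0582) without the low-Ftcd libraries.

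Stab2, the hyaluronan receptor, measured 1.70, 0.73 and 1.20 TPM in the tumours and 1.21 to 11.6 TPM in DEN WT, with an overlap at the low end (-1.14 ± 0.44, SE, adjusted p = 0.309). Without the low-Ftcd libraries 7 members were called between LKO tumour and DEN WT, where 3.16% of all genes were. These were Aqp1, Clec4g, Dnase1l3, Ehd3, Oit3 and Stab2, lower in tumour, and Emcn, higher. The DEN WT libraries left out had the lowest DEN WT values of each gene called lower, which favours those calls.

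Stab1, Fcgr2b and Lyve1 differed from the rest of the scavenging group. Stab1 measured 38.6, 18.6 and 26.8 TPM in the tumours and 18.2 to 68.2 TPM in DEN WT, where library 1 was highest. Fcgr2b measured 11.4, 10.2 and 32.1 TPM in the tumours, the last above all libraries but DEN WT nontumour 6 (34.9 TPM). Lyve1 stayed between 0.44 and 0.82 TPM in the tumours and reached 3.18 TPM in DEN LKO nontumour 3 and 4.27 TPM in DEN WT nontumour 6. Macrophages also make Stab1 and Fcgr2b. In tumour 3 the 11 macrophage markers summed to 1037 TPM, the highest of all libraries, against 161 and 189 TPM in tumours 1 and 2, and in DEN WT nontumour 6 to 660 TPM. Their part in these values was not tested.

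The level of Clec4g relative to Cdh5 in the same library was computed after the values had been seen, as a description. It was 8.28, 2.84 and 0.952 in untreated WT and 4.18, 1.05 and 1.92 in untreated LKO. DEN WT nontumour libraries ran from 1.70 to 6.00 and DEN LKO nontumour libraries had 2.10, 1.80 and 0.583. In the tumours it was 1.51, 0.225 and 0.127. Tumours 2 and 3 had the lowest Clec4g per Cdh5 of all 18, and tumour 1 lay within the range of nontumour liver. Tumours 2 and 3 were also the 2 libraries with the most Cdh5, which by itself lowers the ratio. Stab2 per Cdh5 was 0.423, 0.039 and 0.061 in the tumours against 0.155 or more in every other library. It shares the denominator and is not a separate result.

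**Figure D5:**
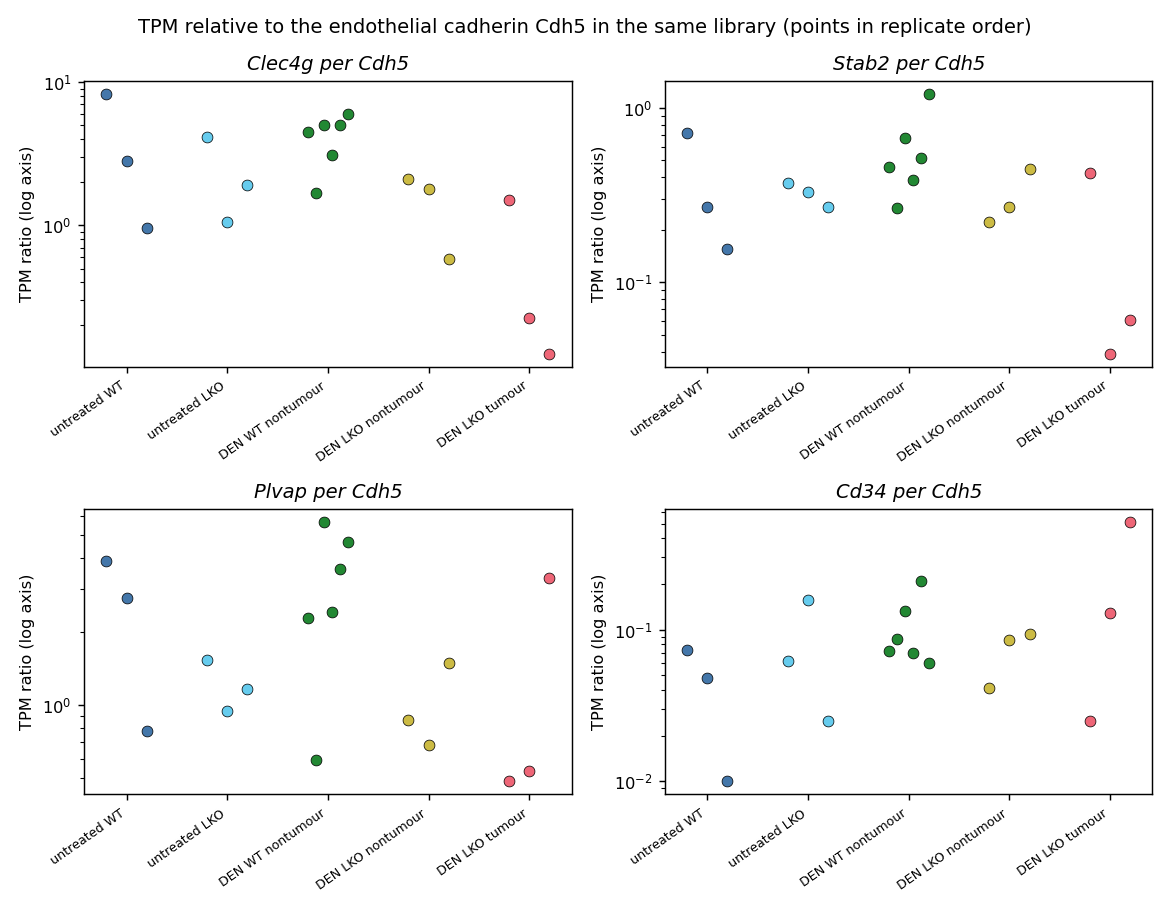
The TPM of Clec4g, Stab2, Plvap and Cd34 divided by that of Cdh5 in the same library (log axes), with points in replicate order within the 5 groups. LKO tumours 2 and 3 have the lowest Clec4g and Stab2 per Cdh5 of the 18 libraries, and LKO tumour 3 has the highest Cd34 per Cdh5 (0.514).

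Promoter sequences are shown for Clec4g and Emcn, the members with the lowest and the highest fold change between LKO tumour and DEN WT, and for S1pr3, the member called, to let their upstream sequence be read beside the values. They come from RefSeq on GRCm38.p6 (mm10), run 5′ to 3′ on the gene's strand and end before the annotated gene. Capitals mark the ETS core AGGAAG or its reverse complement CTTCCT, the letters bound by ETS factors such as the member Erg. Clec4g (ENSMUSG00000074491) spans bases 3707064 to 3720651 of chromosome 8, Emcn (ENSMUSG00000054690) bases 137341067 to 137432185 of chromosome 3 and S1pr3 (ENSMUSG00000067586) bases 51408639 to 51422797 of chromosome 13. The stretches shown for them are Clec4g at chr8:3720652-3720901 (minus strand), Emcn at chr3:137340828-137341066 (plus strand) and S1pr3 at chr13:51408368-51408617 (plus strand).
Clec4g: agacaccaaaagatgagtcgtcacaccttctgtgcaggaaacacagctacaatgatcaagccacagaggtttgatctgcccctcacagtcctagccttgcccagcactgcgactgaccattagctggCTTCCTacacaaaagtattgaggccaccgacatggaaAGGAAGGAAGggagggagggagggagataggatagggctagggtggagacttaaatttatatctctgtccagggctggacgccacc
Emcn: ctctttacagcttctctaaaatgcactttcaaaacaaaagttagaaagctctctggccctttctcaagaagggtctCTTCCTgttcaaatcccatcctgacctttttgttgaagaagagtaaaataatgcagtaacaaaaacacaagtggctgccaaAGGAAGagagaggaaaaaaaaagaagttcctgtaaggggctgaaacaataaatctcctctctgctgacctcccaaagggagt
S1pr3: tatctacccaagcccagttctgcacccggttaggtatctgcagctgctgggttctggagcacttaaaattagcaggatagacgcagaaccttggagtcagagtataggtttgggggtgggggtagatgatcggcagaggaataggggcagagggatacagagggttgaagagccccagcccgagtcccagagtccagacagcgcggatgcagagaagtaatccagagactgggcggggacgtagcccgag
The Clec4g stretch holds 3 matches, of which 2 overlap each other, the Emcn stretch holds 2 and the S1pr3 stretch 0. Windows of 300 bases, from 250 before to 50 after the start, were given for 21 of the 35 members, and 14 of these (66.7%) held the ETS core on either strand, against 38.4% of 27025 genes. The GATA core AGATAA or its reverse TTATCT was in 2 of the 21 (9.52%, Erg and Tek) and in 12.7% of genes. A match is a stretch of letters and not a measured binding site.

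Angiocrine ligands, the signals endothelium sends to hepatocytes, were scarce. Wnt2 measured 0.05, 0.04 and 0.02 TPM in the LKO tumours, below all other libraries (0.07 to 1.02 TPM), but it was too low to be tested. Wnt9b was at or below 0.34 TPM throughout. Bmp2, which drives hepcidin in hepatocytes, measured 1.05, 1.11 and 0.33 TPM in LKO tumours, below every DEN WT nontumour library (1.24 to 4.69 TPM), a difference that limma did not call. Rspo3, the R-spondin of central-vein endothelium, ran from 0.17 to 2.47 TPM in 17 libraries and stood at 10.5 TPM in DEN WT nontumour 1. The hepatocyte genes downstream were read from fixed lists, whose members have other regulators too. Of 14 Wnt and R-spondin targets, 0 were called in any comparison with all libraries, and 13 of 14 had a fold change below 0 between DEN LKO and DEN WT nontumour liver, with a median of -0.98. Of all genes there, 38% lay above 0, with a median of -0.20. Without the low-Ftcd libraries the median was -1.42, beside -0.43 for all genes, and 4 were called lower, beside 871 of all 13548 genes. In LKO tumour against DEN WT 2 were called lower, beside 317 of all 13548 genes. Cyp2e1, a pericentral cytochrome P450, measured 489, 382 and 583 TPM in DEN LKO nontumour liver against 427 to 7472 TPM in DEN WT, and the lowest of these was library 1. Oat, an ornithine enzyme of pericentral hepatocytes, measured 120, 49.4 and 69.5 TPM against 49.2 to 863 TPM, again lowest in library 1. Of 8 BMP targets, 0 were called. In untreated LKO, 8 of 8 lay below 0 with a median of -1.04. Of all genes there, 23.4% lay above 0, with a median of -0.33. With median-ratio scaling 7 of the 8 targets lay below 0 (median -0.68), and without the low-Ftcd library 8 of 8 did (median -1.57). Between DEN LKO and DEN WT nontumour liver 4 of 8 lay below 0 (1 with median-ratio scaling). The most abundant BMP targets, the hepcidin copies Hamp and Hamp2, are near-identical in sequence, and reads may be split between them.

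Large-vessel and capillarised-endothelium genes went in different directions. Plvap measured 25.6, 21.1 and 7.30 TPM in untreated WT and 4.98, 3.09 and 7.54 TPM in untreated LKO. It ran from 4.78 to 45.2 TPM in DEN WT nontumour liver and was 5.25, 6.17 and 12.6 TPM in DEN LKO nontumour liver. In the tumours it measured 1.94, 10.1 and 65.7 TPM, so tumour 1 was the lowest and tumour 3 the highest of all 18 libraries. Cd34, a mark of capillarised and tumour vessels, measured 0.10, 2.44 and 10.2 TPM in the tumours, against at most 2.12 TPM elsewhere. Only tumours 2 and 3 and DEN WT nontumour 5 (2.12 TPM) reached 1 TPM of Cd34. It thus passed the filter through the tumours where it was high. Cd34 was not called between LKO tumour and DEN WT. It was called higher without tumour 1, the tumour at 0.10 TPM, where 3.51% of all genes were called. Leaving out that tumour favours a call, so no conclusion is drawn from it. Vwf, the clotting factor of large-vessel endothelium, ran from 1.07 to 8.21 TPM and did not separate any pair of groups. Tm4sf1, a membrane protein of tumour vessels, measured 2.57, 4.03 and 11.9 TPM in the tumours.

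Aqp1 was low in the LKO libraries with and without DEN. Untreated LKO measured 6.83, 1.71 and 4.72 TPM, and untreated WT 31.8, 8.23 and 2.80 TPM, the last in a low-Ftcd library. After DEN, Aqp1 measured 3.36, 4.78 and 2.35 TPM in LKO nontumour liver and 1.38, 3.98 and 6.18 TPM in LKO tumour. DEN WT ran from 3.99 to 43.9 TPM with a median of 17.5. The DEN groups overlapped through DEN WT nontumour 1 and 2 (3.99 and 5.25 TPM), both low in Ftcd. The differences were -1.86 ± 0.71 (SE, adjusted p = 0.347) for nontumour liver and -1.85 ± 0.71 (adjusted p = 0.305) for tumour, and without the low-Ftcd libraries -2.61 in both (adjusted p = 0.0216 and 0.0207). With the mitochondrial term they were -0.58 and -0.94. Cholangiocytes also make Aqp1. Their 6 markers summed to 15.6 to 179 TPM in DEN LKO nontumour liver and 5.96 to 64.6 TPM in DEN WT, ranges that overlapped, and their part in Aqp1 was not tested.

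The endothelial transcription factors showed no call. Sox18, a factor of vessel growth, measured 1.20, 4.87 and 7.24 TPM in the tumours, where tumours 2 and 3 were above all other libraries (0.56 to 3.72 TPM). Erg, an ETS factor that keeps endothelial identity, measured 2.79, 3.33 and 3.14 TPM in DEN LKO nontumour liver. That was above untreated LKO (1.63, 1.69 and 1.48 TPM) and above LKO tumour (2.08, 2.42 and 1.80 TPM) without overlap in either case. Limma called neither difference. DEN LKO nontumour liver exceeded untreated LKO without overlap for 5 members, Erg, Emcn, Ptprb, Flt4 and S1pr3, beside 9.86% of all genes in that direction. In untreated LKO 3 members (Cdh5, Flt4 and Fcgr2b) were lower than in WT without overlap, beside 8.97% of all genes.

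Other genes of endothelial signalling were read from fixed lists of ligands, receptors, sinusoidal genes, transcription factors and activation or basement membrane genes. Of their 66 tested genes, 1 was called in any comparison with all libraries. Without the low-Ftcd libraries 11 were called between DEN LKO and DEN WT nontumour liver (5 higher and 6 lower), where 9.43% of all genes were, and 4 between LKO tumour and DEN WT (all lower), where 3.16% were. With median-ratio scaling 3 were called between LKO tumour and DEN WT (2 higher and 1 lower), where 2.36% of all genes were, and 1 other gene was called higher in untreated LKO. Nrp2, a co-receptor for VEGF-C, was lower in untreated LKO (0.82, 1.27 and 0.87 TPM) than in untreated WT (11.03, 7.45 and 5.40 TPM), at -2.13 ± 0.42 (SE, adjusted p = 0.0234). The call was lost without untreated WT 1 (-1.90, adjusted p = 0.162), untreated WT 2 (-2.15, adjusted p = 0.126), untreated LKO 1 (-2.07, adjusted p = 0.128), untreated LKO 2 (-2.23, adjusted p = 0.0768) or untreated LKO 3 (-2.09, adjusted p = 0.0997). With median-ratio scaling it was -1.78 (adjusted p = 0.0782), and with a term for sex -2.16 (adjusted p = 0.139). The most abundant ligand, Cxcl12, a chemokine of sinusoidal and stromal cells, measured 25.8, 25.1 and 23.3 TPM in DEN LKO nontumour liver against 12.2 to 179 TPM in DEN WT, and did not pass. Vegfb, the next, ran from 5.12 to 22.5 TPM. Of the other sinusoidal genes, Ctsl, a lysosomal protease found in most cells, ran from 19.3 to 418 TPM and Mmrn2, an endothelial matrix protein, from 2.80 to 49.7 TPM. Col18a1, the source of endostatin, and Angptl4, a lipase inhibitor, both also made by hepatocytes, led the activation list at means of 83.0 and 50.8 TPM, and Maf and Klf2 the transcription factors at 8.64 and 6.10 TPM.

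Several genes of these lists were picked after their values were seen, to show how the tumours differed from each other, and are given without a test. Apln, a ligand of tip cells, was listed at 0 in tumour 1, measured 0.79 and 2.40 TPM in tumours 2 and 3 and reached at most 0.03 TPM in the other 15 libraries. Its receptor Aplnr measured 4.17 and 3.19 TPM in tumours 2 and 3, was listed at 0 in tumour 1 and reached at most 0.42 TPM elsewhere. Esm1, a proteoglycan of tip cells, had 0.13, 2.52 and 4.76 TPM, and Angpt2, which loosens vessels, 0.03, 0.81 and 1.48 TPM. The basement membrane genes Col4a1 (2.48, 12.2 and 62.9 TPM) and Nid1 (0.13, 10.3 and 16.5 TPM) had the same order in the tumours. Of the 18 tested activation and basement membrane genes, 14 had a fold change above 0 between LKO tumour and DEN WT, with a median of 0.50 (10 without the low-Ftcd libraries), and 0 were called. Tumour 3 held the highest value of 33.3% of the tested members, but also of 26.3% of all tested genes, and DEN WT nontumour 6 of 30.3% and 28.0%. Tumour 1 had the lowest sum of large-vessel members of all 18 libraries (7.45 TPM) and the third highest mitochondrial share (31.4%).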

How the data were processed

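Whole-liver RNA was sequenced in 18 libraries. The authors trimmed reads with fastp, aligned them with HISAT to mm10 and quantified genes with RSEM, per the submitters' processing notes, and deposited 1 table of TPM values for 58126 genes. No versions of these tools were given in the sources used here. A TPM table keeps no depth. The authors' mean columns in that table were not used, and 0 columns of per-sample values were left unmapped. The table's totals were equal in all libraries by construction, so a rise in abundant transcripts lowers the rest.

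Values were taken as log2(TPM + 1), genes with at least 1 TPM in at least 3 libraries were kept, and limma 3.58.1 (R 4.3.3, trend on) was fitted to 5 group means over all 18 libraries with 13 residual degrees of freedom. The added 1 makes fold changes of low genes smaller than they were. Benjamini-Hochberg adjustment ran over all tested genes in each of 6 comparisons, 2-sided. The fit was checked on simulated data. The members and lists were chosen with earlier results of these data known. Every member could be named, and of each further list the genes called, or the 2 with the highest mean where none was. Apln, Aplnr, Esm1, Angpt2, Col4a1, Nid1, Vegfc, Vegfd and Sema6a fall outside this rule and were chosen after their values were seen. Alternatives were another pseudocount, no filter, median-ratio scaling, the compared groups alone, a replicate block, a sex term, the mitochondrial share, leaving out the libraries labelled WT with low Ftcd, and leaving out each library. Promoters came from the RefSeq table for GRCm38.p6, and motifs were counted on both strands.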

Additional observations from a re-analysis of the deposited data

Results flagged for a closer look

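In DEN WT nontumour liver, library 1 stood far from the other 5 for 2 of the 35 members. Emcn measured 23.65 TPM there against 2.86 to 4.43 TPM in the others, and Rspo3 measured 10.5 TPM against 0.24 to 1.52 TPM. Chance alone sets a sample apart in this way in about 1 of 20 groups. This library had low Ftcd despite its WT label and the highest mitochondrial share of all (38.8%).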

How the results depend on the processing

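Between DEN LKO nontumour and untreated LKO liver, where S1pr3 was called, 0 members were called with a pseudocount of 0.1 TPM (adjusted p = 0.134), with no filter on low values (adjusted p = 0.0646) and with the compared groups alone (adjusted p = 0.0689), and 0 to 1 when each library was left out. Between DEN LKO and DEN WT nontumour liver 0 members became 7 without the low-Ftcd libraries and 0 to 2 when each library was left out, with 1.39% of all genes called without DEN WT nontumour 1. Between LKO tumour and DEN WT 0 became 3 with median-ratio scaling (Clec4g, Ehd3 and Dnase1l3, where 2.36% of all genes were called), 7 without the low-Ftcd libraries and 0 to 2 when each library was left out. The other 3 comparisons had 0 members called under every alternative run. In untreated LKO against WT the members' median lay -0.05 from that of all genes, but -0.356 with the smaller pseudocount and -0.352 with no filter. Counts over all genes moved by more than 1.5 times in several fits. Untreated LKO against WT went from 60 to 94 with median-ratio scaling, 109 with the groups alone, 26 with the sex term and 33 at the lowest with a library left out. DEN LKO against DEN WT went from 8 to 2 with the smaller pseudocount, 21 with no filter, 4 with the sex term, 0 with the mitochondrial share, 1277 without the low-Ftcd libraries and 0 to 190 with a library left out. DEN in LKO went from 9 to 2, 19 with scaling, 189 with the sex term and 0 to 20 with a library left out. LKO tumour against LKO nontumour liver went from 0 to 11 with no filter, 1 with scaling or the groups alone and 0 to 29 with a library left out. LKO tumour against DEN WT went from 69 to 327 with scaling, 8 with the groups alone, 9 with the sex term, 161 with the mitochondrial share, 428 without the low-Ftcd libraries and 27 to 481 with a library left out. The cause was not tested. Median-ratio scaling changed the share of calls that were higher from 40% to 57.4% in untreated LKO, from 50% to 72.7% in DEN LKO against DEN WT and from 55.6% to 42.1% for DEN in LKO. Replicate numbers were not taken as pairs in the main fits, since the labels do not explain them. In no comparison did all 3 same-numbered pairs deviate together (lowest correlations from -0.631 to 0.005). Deviations from means of so few libraries cannot exclude that LKO tumour and nontumour libraries were paired. Of the LKO tumour and nontumour libraries, replicates 1 and 2 correlated best with their own number (0.347 and 0.301) and replicate 3 did not (-0.034), sex agreed in all 3, and whether they came from the same animals is not stated. With the replicate block, counts over all genes were 163 for untreated LKO, 0 for DEN LKO against DEN WT, 0 for DEN in WT, 350 for DEN in LKO, 3 for tumour against nontumour and 0 for tumour against DEN WT. S1pr3 stayed the only member called, and the members' median relative to all genes was -0.128, 0.059, 0.028, 0.356, -0.242 and -0.051 in that order. Without counts, depth limits cannot be set, and members under 1 TPM are the least certain.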
